A study of Homo sapiens with 6 samples.

Results

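The genes described here are 10 markers and regulators of the epithelial-mesenchymal transition: the cadherin genes CDH1 and CDH2, the epithelial adhesion gene EPCAM, the intermediate filament gene VIM, the matrix gene FN1, and the transcription factor genes SNAI1, SNAI2, ZEB1, ZEB2 and TWIST1. They were taken by gene symbol from an array table with 22411 symbols that have a feature of their own, and 9 of the 10 had such a feature, exactly 1 each. ZEB2 appeared on 1 feature that the platform annotation assigns to ZEB2 and to its antisense RNA ZEB2-AS1 together, so that signal cannot be given to either gene and is called the ZEB2/ZEB2-AS1 feature below. None of the 10 features had the same values as another feature on all arrays. The cells were H460, an established human non-small cell lung cancer line, either not irradiated (the control group, 3 arrays) or exposed to 7 Gy of radiation (3 arrays), and the labels call the arrays of a group biological replicates. Both groups are the same line with no other treatment named, and how long after exposure the RNA was taken is not stated in the sources used here. Values are log2 signals of the GeneChip Human Transcriptome Array 2.0, with 1 value per feature and array. The design asked how radiation changes expression across the transcriptome, and each difference below is irradiated minus control.

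In the epithelial-mesenchymal transition, epithelial cells lose the junctions that hold them to their neighbours and take on the shape and movement of mesenchymal cells. SNAI1, SNAI2, ZEB1, ZEB2 and TWIST1 encode DNA-binding factors that recognise E-box motifs, and the SNAI and ZEB factors repress CDH1, the gene of E-cadherin, directly. Loss of E-cadherin with gain of N-cadherin (CDH2), vimentin (VIM) and fibronectin (FN1) is the usual readout of the transition, and carcinoma cells often hold a mixture of both programmes.

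After irradiation the ZEB2/ZEB2-AS1 feature rose 1.61-fold and the FN1 signal rose 1.15-fold, while the other 8 genes did not pass the test. Of the 9 genes with a feature of their own, 1 was higher and 0 were lower at an adjusted p under 0.05 (limma with Benjamini-Hochberg adjustment over 67528 transcript clusters, the array's gene-level features). At an unadjusted p under 0.05 there were 4 of the 9. The share of all features under that unadjusted cut was not counted, so such counts, here and below, are not read as an excess. For comparison, 9.18% of the genes measured by 1 feature per symbol were called in either direction, 3.65% higher and 5.52% lower, and over all transcript clusters the share was 5.05%, with 2.25% higher and 2.80% lower. The count of called genes among the 9 was thus near the background share. The median difference of the 9 genes was 0.016 on the log2 scale, against 0.014 over all symbols. The plot of signals by array shows that the separation was widest for the ZEB2/ZEB2-AS1 feature.

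**Figure D1:**
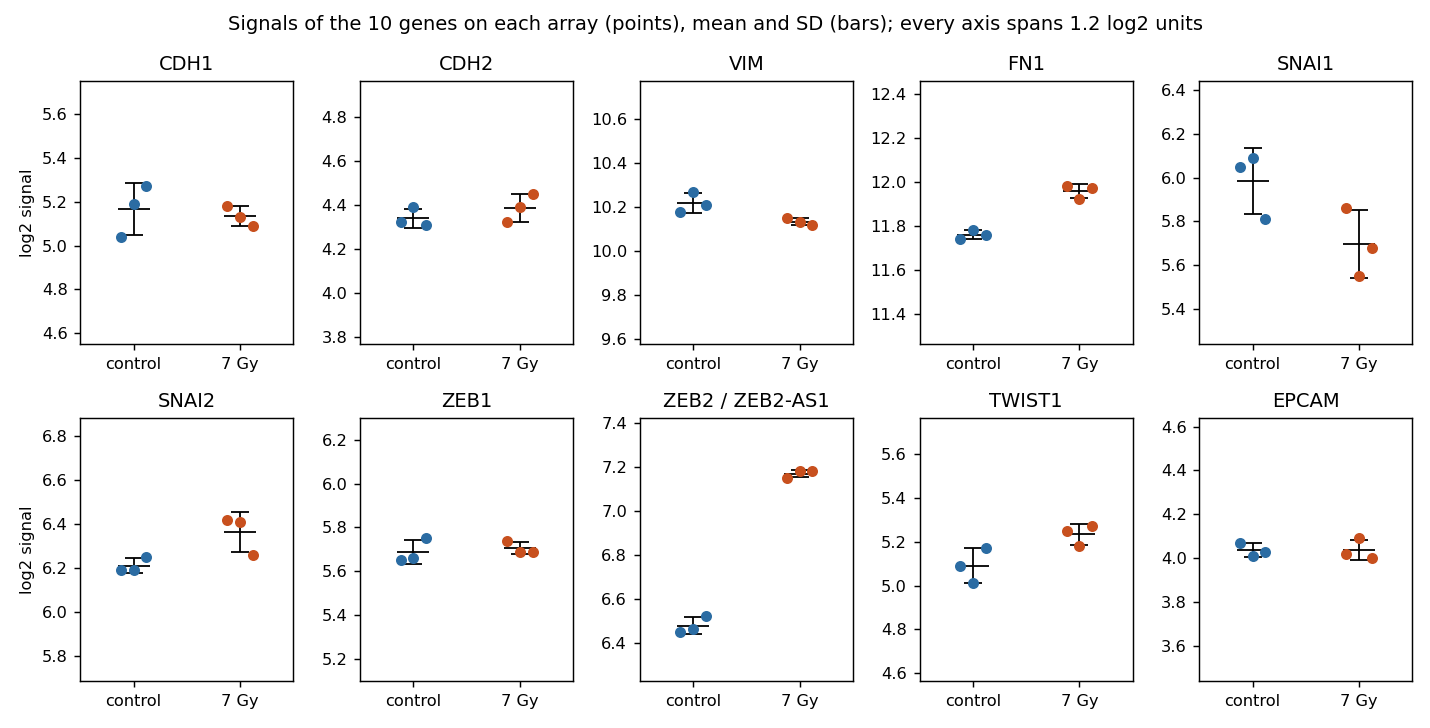
Log2 signal (vertical axis) of each of the 10 features on the 3 control and the 3 irradiated (7 Gy) arrays, with points for single arrays and bars for mean and SD. The ZEB2/ZEB2-AS1 feature lay at 6.45 to 6.52 in controls and 7.15 to 7.18 after irradiation, and the SNAI1 points overlap.

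Among the transcription factors, the ZEB2/ZEB2-AS1 feature stood apart. ZEB2 encodes a zinc finger homeobox repressor, and ZEB2-AS1 is known as an antisense RNA that favours production of the ZEB2 protein. The feature read 6.45, 6.46 and 6.52 on the control arrays and 7.15, 7.18 and 7.18 on the irradiated arrays. All 3 irradiated arrays were above all 3 controls, and the gap between groups was many times the SD within either. The means were 6.48 ± 0.037 and 7.17 ± 0.017 (SD, n = 3), a log2 difference of 0.69 (SE 0.044, 95% interval 0.59 to 0.79, limma adjusted p = 0.000471). Of the 67528 transcript clusters, 167 had a larger rise. Leaving out any 1 array kept the call, with differences from 0.68 to 0.71.

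The related gene ZEB1, whose protein binds the same motifs as ZEB2, had no such difference. Its signal was 5.65, 5.66 and 5.75 in controls and 5.74, 5.69 and 5.69 after irradiation, and the groups overlapped. The difference was 0.016 (95% interval -0.10 to 0.13, limma adjusted p = 0.896), so changes beyond 1.09-fold in either direction lie outside the interval. Whether the ZEB1 and ZEB2/ZEB2-AS1 differences differ from each other was not tested.

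SNAI1 encodes Snail, a zinc finger repressor with a short-lived protein, and SNAI2 encodes its relative Slug. The SNAI1 signal was 6.05, 6.09 and 5.81 on control arrays and 5.86, 5.55 and 5.68 on irradiated ones. Control 3 lay below irradiated 1, so the groups overlapped, and SNAI1 had the largest SD of the 10 features in both groups (0.15 and 0.16). The difference was -0.29 (SE 0.10, 95% interval -0.52 to -0.046, limma adjusted p = 0.194), which did not pass. SNAI2 gave 6.19, 6.19 and 6.25 without irradiation against 6.42, 6.41 and 6.26 with it. The 2 ranges did not overlap, although irradiated 3 was only just above the highest control. The SNAI2 difference was 0.15 (SE 0.058, 95% interval 0.017 to 0.29, limma adjusted p = 0.219) and did not pass either. Thus the SNAI1 and SNAI2 estimates had opposite signs, and neither was called.

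TWIST1 encodes a basic helix-loop-helix factor that pairs with E proteins. Its control values were 5.09, 5.01 and 5.17, and its irradiated values were 5.25, 5.18 and 5.27. The groups did not overlap, by a margin smaller than the SD within either. The difference was 0.14 (SE 0.056, 95% interval 0.012 to 0.28, limma adjusted p = 0.231), and TWIST1 was not called.

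FN1, the gene of the matrix glycoprotein fibronectin, was the called gene among those with their own feature. Its feature lay above all 23 background controls of the array. The reference table lists ATIC and FN1-DT as overlapping FN1, and whether they share in this signal was not tested. The FN1 values were 11.74, 11.78 and 11.76 in controls and 11.98, 11.92 and 11.97 in irradiated cells. Every irradiated array was above every control, as for 15.2% of all transcript clusters, and each group was tight. The means were 11.76 ± 0.018 and 11.96 ± 0.033 (SD, n = 3), with a difference of 0.20 (SE 0.043, 95% interval 0.095 to 0.30, limma adjusted p = 0.0493). A larger rise was seen in 4764 of the 67528 transcript clusters. The adjusted p of FN1 was close to the threshold, and leaving out any 1 of the 6 arrays lost the call (differences 0.18 to 0.22, adjusted p 0.0894 to 0.179). With quantile normalization the difference was 0.12 and the adjusted p = 0.316, and with each array centred on its median it was 0.18 and 0.0820. The direction was upward in each of these fits.

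The upstream sequences of FN1 and ZEB2, both on chromosome 2, are shown as a description. Each is the 250 bases before the annotated transcription start, from RefSeq on GRCh38.p14, minus strand, read 5′ to 3′. Of the 10 genes, 5 had an entry in the promoter table. The FN1 stretch lies at chr2:215436069-215436318 and the ZEB2 stretch at chr2:144520120-144520369. Capitals mark matches, on either strand, to the E-boxes CACCTG and CANNTG, to the cyclic AMP response element TGACGTCA, to CCAAT and to TATAA. The last 3 motifs were chosen as known elements of the FN1 promoter, so their matches in FN1 follow from that choice.
FN1: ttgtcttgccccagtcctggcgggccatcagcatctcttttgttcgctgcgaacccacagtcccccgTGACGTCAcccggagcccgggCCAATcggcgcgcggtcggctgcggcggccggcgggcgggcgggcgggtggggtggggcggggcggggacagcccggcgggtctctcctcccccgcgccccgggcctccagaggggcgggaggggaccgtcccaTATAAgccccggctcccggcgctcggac
ZEB2: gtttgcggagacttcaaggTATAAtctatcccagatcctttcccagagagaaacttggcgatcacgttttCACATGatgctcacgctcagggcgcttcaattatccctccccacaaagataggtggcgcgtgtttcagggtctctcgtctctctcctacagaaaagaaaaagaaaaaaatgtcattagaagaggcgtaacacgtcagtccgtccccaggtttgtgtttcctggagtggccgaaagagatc
In the FN1 stretch, TGACGTCA lay 183 to 176 bases before the start, CCAAT 162 to 158 and TATAA 28 to 24. The ZEB2 stretch held 1 match to CANNTG, 180 to 175 bases before the start, and TATAA at 231 to 227. Neither stretch held CACCTG or its reverse complement CAGGTG. Among 35116 promoter entries of the same length, 1.65% held TGACGTCA, 32.0% CCAAT, 18.9% TATAA, 61.8% CANNTG (which includes every CACCTG) and 17.5% CACCTG. A match is a stretch of letters and not a measured binding site. The ZEB2 stretch belongs to ZEB2, while the called signal cannot be given to ZEB2 or to ZEB2-AS1.

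VIM, the gene of the mesenchymal intermediate filament vimentin, was bright in both groups, above 22 of the 23 background controls. Its values were 10.18, 10.27 and 10.21 in controls and 10.15, 10.13 and 10.12 in irradiated cells. All 3 irradiated values were below all 3 controls, by a small margin. The difference was -0.084 (SE 0.045, 95% interval -0.19 to 0.022, limma adjusted p = 0.385). A rise of VIM beyond 1.02-fold therefore lies outside the interval of this fit. The bound depends on the scaling, since with quantile normalization the difference was -0.034 (limma adjusted p = 0.855).

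The cadherin genes CDH1 and CDH2 were not called. CDH1, which holds epithelial cells together, read 5.04, 5.19 and 5.27 in controls and 5.18, 5.13 and 5.09 after irradiation. The irradiated values lay within the range of the controls. The difference was -0.034 (95% interval -0.19 to 0.13, limma adjusted p = 0.845), and its sign turned to 0.020 without control 3. CDH2, the N-cadherin gene of mesenchymal and neural cells, read 4.32, 4.39 and 4.31 in controls and 4.32, 4.39 and 4.45 in irradiated cells. The 2 groups shared most of their range, with a difference of 0.044 (95% interval -0.079 to 0.17, limma adjusted p = 0.717). A switch from CDH1 to CDH2 was not detectable with these arrays, and as folds the intervals ran from 0.874 to 1.09 for CDH1 and from 0.947 to 1.12 for CDH2.

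EPCAM encodes an adhesion molecule of epithelial cells and carcinomas. Its signal was 4.07, 4.01 and 4.03 in controls and 4.02, 4.09 and 4.0 in irradiated cells. The groups overlapped fully, with a difference of 0.0040 (95% interval -0.11 to 0.11, limma adjusted p = 0.976). The sign of this difference turned with the scaling, to -0.028 after quantile normalization and -0.014 after median centring. Its mean of 4.04 was near the median of the 23 background controls (3.74, range 2.17 to 11.67), as was the 4.36 of CDH2. CDH1 (5.15) and TWIST1 (5.16) lay at the level of the blood cell genes CD3E (5.11) and ITGAM (5.3). ZEB1 (5.7) and SNAI1 (5.84) lay below the blood cell gene CD14 (6.09). No detection calls were given, so whether the features of EPCAM, CDH2, CDH1, TWIST1, ZEB1 and SNAI1 measured transcript was not settled. A difference there may understate a change, and their intervals, however narrow, describe the signal of the feature only. Over the 10 features, the groups did not overlap for 5 (4 higher and 1 lower), while 24.6% of all transcript clusters had groups without overlap, 15.2% higher and 9.41% lower.

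**Figure D2:**
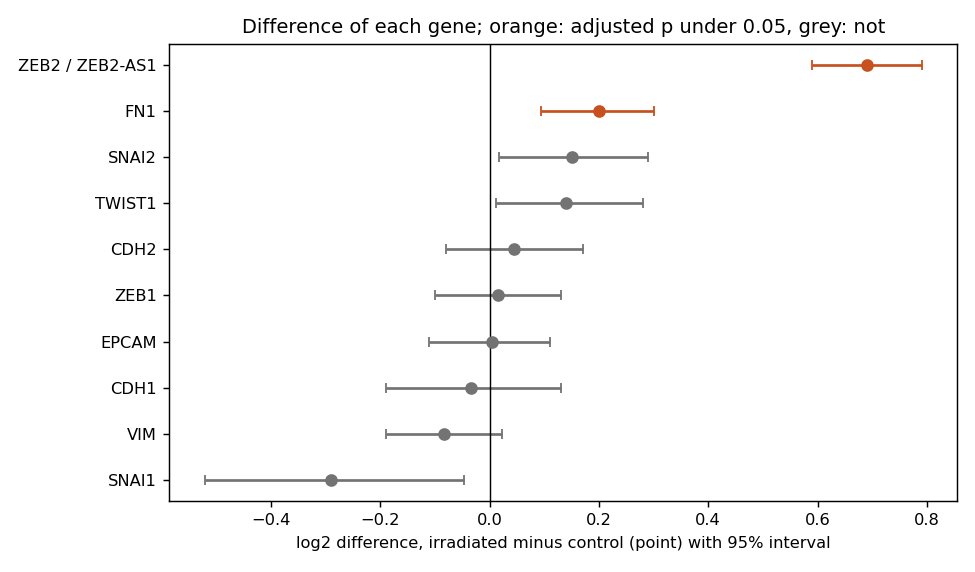
Log2 difference, irradiated minus control (horizontal axis), of each of the 10 features with its 95% interval from the moderated fit; orange marks an adjusted p under 0.05. The interval of the ZEB2/ZEB2-AS1 feature (0.59 to 0.79) lies far to the right of 0, that of FN1 starts at 0.095, and those of CDH1, CDH2, VIM, ZEB1 and EPCAM cross 0.

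The levels of listed marker genes, as means over all 6 arrays, were set against the background controls. All 6 listed epithelial markers lay above the median of the background controls, from 4.04 for EPCAM to 10.86 for the keratin gene KRT8. Their summed log2 signal was 47.78 to 47.97 in controls and 47.53 to 47.91 in irradiated arrays, and 0 of the 6 passed in limma (3 had an unadjusted p under 0.05). Of the markers of other cells, 7 of 10 fibroblast genes, 6 of 10 blood cell genes and 2 of 6 endothelial genes lay above that median. With blood cell genes passing it in this line, lying above the median does not show that a gene was expressed. None of these 26 genes was called by limma, and 3 had an unadjusted p under 0.05. Their summed log2 signals were 47.76 to 48.07 against 48.23 to 48.59 (fibroblast, control against irradiated), 45.38 to 45.63 against 45.68 to 46.02 (blood) and 23.42 to 23.83 against 23.79 to 24.06 (endothelial). The fibroblast and blood sums were thus a little higher on every irradiated array, for blood by a narrow gap (45.63 to 45.68). The median difference over all transcript clusters was also upward, at 0.026 per feature, and the sums were not corrected for it. Whether these sums have a part in the differences above was not tested. Arrays of total RNA cannot tell a change per cell from a change in how many cells carry a transcript. That the irradiated arrays carried a p53 response showed in MDM2, the gene of the p53 ubiquitin ligase, which rose by 2.06 (SE 0.056).

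The microRNAs of the miR-200 family repress ZEB1 and ZEB2 through sites in their transcripts, and ZEB proteins repress the miR-200 genes in turn. The mature sequences, from RefSeq on GRCh38.p14, are shown because their seeds (bases 2 to 8, in capitals) split the family into 2 groups that differ in 1 base. The first 3 share one seed and the last 2 the other.
hsa-miR-200b-3p: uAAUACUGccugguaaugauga
hsa-miR-200c-3p: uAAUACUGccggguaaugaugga
hsa-miR-429: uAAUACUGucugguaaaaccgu
hsa-miR-200a-3p: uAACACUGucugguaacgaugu
hsa-miR-141-3p: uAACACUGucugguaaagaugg
The array features of these genes measure RNA from the gene, not the mature microRNA. MIR200B read 5.08, 5.07 and 5.20 in controls and 5.19, 5.16 and 5.18 after irradiation. The groups overlapped, with a difference of 0.060 (SE 0.051, limma adjusted p = 0.594). MIR34A, a p53-activated microRNA gene whose product targets SNAI1, had a difference of 0.026 (SE 0.061, adjusted p = 0.864). Of 6 microRNA genes with their own feature, 0 passed in limma and 1 had an unadjusted p under 0.05 (MIR429, named after its value was seen, with a difference of 0.16 and an adjusted p = 0.266), and 4 of the 6 lay at or below the median of the background controls. The listed genes MIR205, MIR34B, MIR34C and MIR203A had only features with several symbols and are not described.

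Other genes of the transition were taken from lists. Of 22 measured transcription factors and partners, 5 rose, 1 fell and 16 did not pass, with a median difference of 0.082. FOXQ1, a forkhead factor, rose from 7.79 ± 0.035 to 8.39 ± 0.22 (SD, n = 3), a difference of 0.59 (SE 0.10, limma adjusted p = 0.0211), with irradiated 2 at 8.64 and the other 2 irradiated arrays at 8.28 and 8.24. The call of FOXQ1 was lost without control 1, control 2 or control 3 (adjusted p up to 0.0915). SOX4, a factor known to promote the transition in mammary cells, rose by 0.57 (SE 0.067, adjusted p = 0.00441) and SOX9, a progenitor factor, by 0.42 (SE 0.055, adjusted p = 0.00657). The other calls, named after their values were seen, were LATS2 (0.39), a Hippo pathway kinase, FBXW7 (0.39), a ubiquitin ligase subunit, and ID1 (-0.40), an inhibitor of basic helix-loop-helix factors. FBXW7 lost its call without control 1 or control 2 (adjusted p up to 0.0633).

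Of 22 measured junction genes, 4 rose, 0 fell and 18 did not pass, while 3.65% of all symbols were called higher and 5.52% lower. The median difference of the list, 0.014, was that over all symbols, so the list as a whole was not shifted. The desmosome gene PKP2 rose by 0.51 (SE 0.045, limma adjusted p = 0.00145), from 6.25, 6.24 and 6.29 to 6.79, 6.79 and 6.72. CLDN1, a tight junction claudin, rose by 0.46 (SE 0.052, adjusted p = 0.00405), and the desmosomal cadherin gene DSC2 by 0.46 (SE 0.052, adjusted p = 0.00402). JUP, which encodes plakoglobin and was named after its value was seen, rose by 0.36. These 4 kept their calls in each of the 6 fits without 1 array. The catenin gene CTNNB1 (-0.051) and the tight junction gene TJP1 (0.0031), chosen after their values were seen, did not pass. In the list of epithelial identity genes, 1 of 24 rose, 0 fell and 23 did not pass (median 0.012). GRHL3, a grainyhead factor of surface epithelia, was the 1 at 0.32 (SE 0.056, adjusted p = 0.0233), and it was called in 0 of the 6 fits without 1 array (adjusted p up to 0.0975).

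Among 26 mesenchymal and matrix genes, 4 rose, 0 fell and 22 did not pass, with a median of 0.014, the same as over all symbols. ACTA2, the gene of smooth muscle actin, rose from 7.08, 7.08 and 6.83 to 7.92, 7.89 and 7.86, a difference of 0.89 (SE 0.074, limma adjusted p = 0.00119). The reference table places FAS, a death receptor gene, and ACTA2-AS1 over part of ACTA2, and whether they share in this signal was not tested. CCN2, a secreted matrix-associated growth factor, rose by 0.58 (SE 0.076, adjusted p = 0.00703), and the receptor tyrosine kinase gene AXL by 0.31 (SE 0.048, adjusted p = 0.0139). TGFBI, a matrix protein gene named after its value was seen, rose by 0.23. With control 1, control 2 or irradiated 3 left out, AXL was no longer called (adjusted p up to 0.0657) and the count was 2. TGFBI was called in 0 of the 6 fits without 1 array (adjusted p up to 0.109). CDH11, a mesenchymal cadherin gene with a bright feature, was chosen after its value was seen and had a difference of 0.023.

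TGF-beta is the best studied inducer of the transition. Of 20 listed genes of its pathway, 5 rose, 0 fell and 15 did not pass, with a median of 0.082. The ligand gene TGFB2 rose from 8.31, 8.33 and 8.35 to 8.84, 8.84 and 8.85, a difference of 0.51 (SE 0.041, limma adjusted p = 0.00109). SMURF1, a ubiquitin ligase that limits the pathway, rose by 0.40 (SE 0.041, adjusted p = 0.00284), and SMAD3, which carries the receptor's signal to the nucleus, by 0.34 (SE 0.052, adjusted p = 0.0133). SKIL (0.33), an inhibitor of SMAD proteins, and the receptor gene TGFBR1 (0.24) also rose and were named after their values were seen. SMAD3 was not called with control 1, control 3, irradiated 2 or irradiated 3 left out (adjusted p up to 0.0630), and TGFBR1 was called in 1 of the 6 fits without 1 array, the one without control 3 (adjusted p up to 0.123). The count was 3 without control 1, irradiated 2 or irradiated 3. The other ligand genes TGFB1 (-0.11) and TGFB3 (-0.21), named after their values were seen, did not pass. Across the lists, the shares called were 27.3% for transcription factors, 18.2% for junction genes, 4.17% for epithelial identity, 15.4% for mesenchymal genes and 25.0% for the TGF-beta pathway, beside 9.18% of all symbols. The comparison is not like for like. Of these lists, 20 of 20 TGF-beta genes and 21 of 22 transcription factors lay above the median of the background controls. The 9.18% is over all 22411 symbols, dim ones included.

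**Figure D3:**
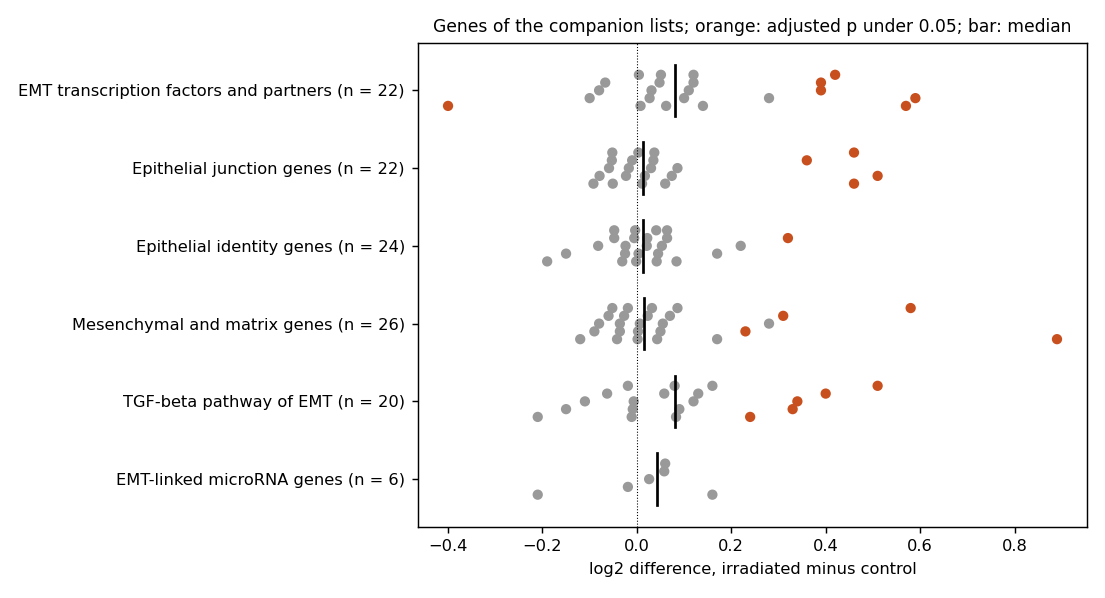
Log2 difference, irradiated minus control (horizontal axis), of every measured gene of the 6 lists; orange points have an adjusted p under 0.05, and the bar is the list's median. Most points lie near 0. ACTA2 at 0.89 lies farthest to the right, followed by FOXQ1 at 0.59, CCN2 at 0.58 and SOX4 at 0.57. ID1 at -0.40 lies farthest to the left.

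The genes with the profiles closest to the called features were found by the root mean square difference over the 6 arrays, after each gene's control mean was subtracted. For FN1 they were PTPRE (0.0122 log2 units), DMXL1 (0.0129) and SUPT20H (0.0171) among 22410 candidates. PTPRE, a tyrosine phosphatase gene, had a difference of 0.18 from a control mean of 5.25, and SUPT20H, a SAGA complex gene, had 0.18 from 6.32. For the ZEB2/ZEB2-AS1 feature they were NRG1 (0.0216), AGTPBP1 (0.0276) and PLK2 (0.0279) among 22411. NRG1, an ERBB receptor ligand gene, rose by 0.68 from 6.76, and PLK2, a stress-induced polo-like kinase gene, by 0.67 from 7.08. The likeness describes these 6 arrays and has no test.

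**Figure D4:**
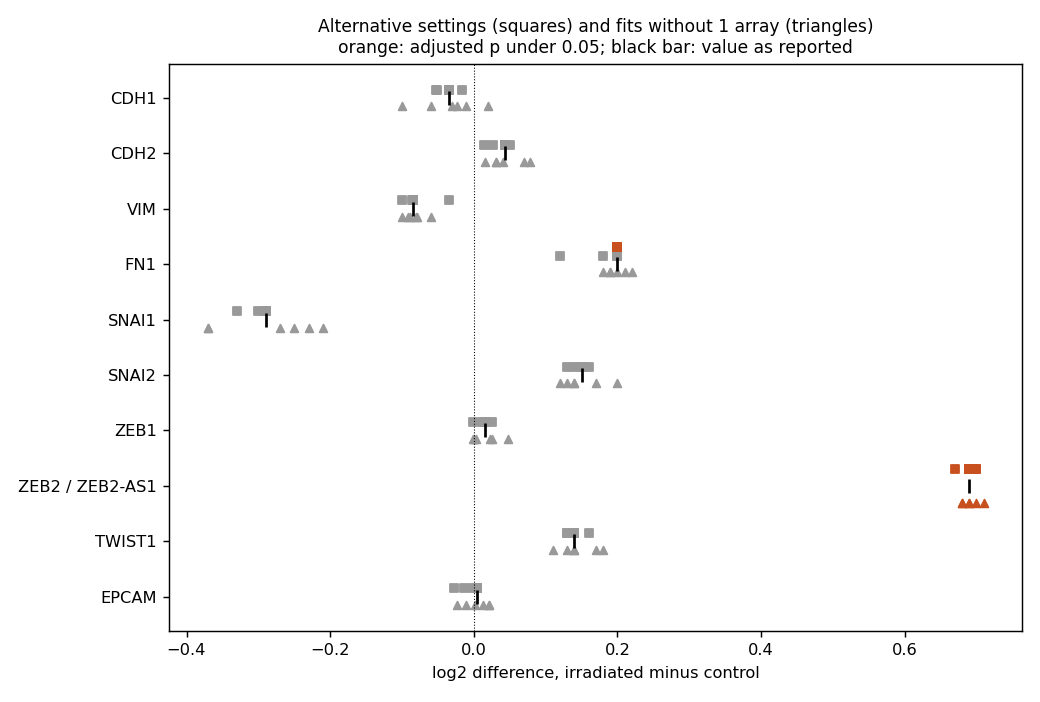
Log2 difference, irradiated minus control (horizontal axis), of the 10 features under other processing settings (squares) and without 1 array (triangles), with orange for an adjusted p under 0.05 and a black bar for the value as reported. The ZEB2/ZEB2-AS1 feature is orange throughout between 0.67 and 0.71, and FN1 is orange in some settings and in no fit without 1 array.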

How the data were processed

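RNA of 3 control and 3 irradiated H460 arrays gave 70523 values per array. Per the labels, the deposited log2 values are named as an RMA gene-level signal, while the submitters' processing notes name MAS5. Which of them made the values was not settled, and neither software version nor annotation build is stated in the sources used here. Array medians lay between 4.65 and 4.70, and correlations between arrays between 0.9938 and 0.9975. Precision is set by the number of arrays. The 67528 transcript clusters were fitted in R 4.3.3 with lmFit and eBayes of limma 3.58.1 (two-sided, Benjamini-Hochberg, called at an adjusted p under 0.05), which was checked on simulated data. Symbols came from the platform table, updated through RefSeq, and the brightest feature was used per symbol. All 10 genes are named, then up to 3 called genes per list by size, or the 2 brightest where none was called, and the 3 closest profiles. The genes and lists were chosen with earlier results of these data known. The reference table places another gene over 8 of the 10, FN1 among them. It also does so for several called genes of the lists, such as CLDN1 (CLDN16) and GRHL3 (STPG1). Whether overlapping genes share in the signals was not tested. Alternatives changed normalization, variance model, features tested, replicate block and arrays.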

Additional observations from a re-analysis of the deposited data

How the results depend on the processing

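Limits: 3 arrays per group, no detection calls, and dim features that may understate a change. The ZEB2/ZEB2-AS1 feature kept its direction and its call in each of the 14 fits that held it (0.67 to 0.71). FN1 had 0.12 with quantile normalization, 0.18 with median centring, 0.20 with all rows of the table tested (adjusted p = 0.0505) and 0.20 with the replicate block (adjusted p = 0.151), none of them called, and 0.18 to 0.22 without 1 array; the cause was not tested. In those 4 settings and in every fit without 1 array, 0 of the 9 genes were called, against 1. Counting the ZEB2/ZEB2-AS1 feature too, a count added after seeing the data, there was 1 in the same fits and 1 when features with 1 symbol were tested, against 2. Signs turned for ZEB1 (-0.0013 with median centring) and EPCAM (-0.028 with quantile normalization, -0.014 with median centring, -0.0014 with array weights). Without 1 array, differences ran from -0.10 to 0.020 for CDH1, -0.0012 to 0.048 for ZEB1 and -0.023 to 0.021 for EPCAM. The signs of CDH2, VIM, SNAI1, SNAI2 and TWIST1 held in all 15 alternatives each, and none of these 5 was called in any. Over all transcript clusters, 3411 were called, 1598 with the replicate block, and 1559 to 2379 without 1 array, each of these with fewer arrays. Epithelial identity genes had 1 called, but 2 with quantile normalization, an intensity trend, array weights or dim features left out, 3 with features of 1 symbol, 0 in the unmoderated test or with the replicate block, and 0 in each fit without 1 array. Mesenchymal genes had 4 called, 2 with the replicate block and 2 to 3 without 1 array, and TGF-beta genes 5 and 3 to 4. The replicate numbers gave no pairing, since deviations of same-numbered arrays correlated at -0.011, -0.073 and -0.039, and no array correlated best with its own number. Averaging several features of a gene was not run, as each gene had 1.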

Other observations

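Some listed genes lay just outside the threshold and were chosen for that after their values were seen. CCN1, a matricellular gene like CCN2, had a difference of 0.28 (SE 0.066, limma adjusted p = 0.0601), from 6.56, 6.48 and 6.36 to 6.72, 6.83 and 6.70. ID2, a relative of ID1, had 0.28 (SE 0.069, adjusted p = 0.0758), the opposite sign to ID1. KLF5, an epithelial zinc finger factor, had 0.22 (SE 0.050, adjusted p = 0.0550). The groups did not overlap for any of the 3, while 24.6% of all transcript clusters had groups without overlap, 15.2% higher. Choosing genes near the threshold favours such separation, so it adds no support.

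The keratin genes of simple epithelia had differences of both signs, and none was called. KRT19 read 10.15, 10.14 and 10.15 in controls and 10.41, 10.27 and 10.25 after irradiation, a difference of 0.17 (SE 0.055, limma adjusted p = 0.163). KRT18 read 10.08, 10.09 and 10.06 against 9.97, 9.92 and 9.90, a difference of -0.15 (SE 0.044, adjusted p = 0.130). KRT7 had -0.19 (adjusted p = 0.189) and KRT8 -0.0036 (adjusted p = 0.979).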
